A study of Mus musculus with 9 samples.

Results

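Clustered CHD7 peaks are places on a chromosome where CHD7 CUT&RUN gave several peaks close together. They were chosen by the distance between peak midpoints: a peak was counted as clustered when its midpoint lay at most 25 kb from that of another peak on the same chromosome, and a cluster was a chain of such peaks. Of 3761 peaks, 518 were clustered (13.8%, Wilson 95% CI 12.7 to 14.9) and fell into 246 clusters, while 3243 had no such neighbour and are called isolated. The cells were wild-type mouse embryonic stem cells of C57BL6 origin, differentiated towards cardiomyocytes and collected at day 5, when they are cardiac progenitor (CP) cells. In CUT&RUN an antibody holds a nuclease at a chromatin protein, and the DNA cut free at those places is sequenced. There were 9 libraries, 3 biological replicates each with anti-CHD7, with IgG as negative control and as input. The replicates had been joined into 1 list of peak positions on mm10 that carries no read count or score, so depth is unknown, no value has a replicate error, and a wide and a narrow peak cannot be ranked by strength. Nothing in such a list shows expression, and the identity of the cells could not be checked against marker genes.

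CHD7 is an ATP-dependent chromatin remodeller of the CHD family that slides nucleosomes at promoters and enhancers, and its loss in humans causes CHARGE syndrome, in which heart defects are common. Developmental genes are often controlled by several enhancers that lie near each other and act on the same promoter, and stretches dense in such elements are typical of genes for transcription factors and signals. CHD7 does not read a DNA sequence by itself, and in the heart field it works beside sequence-specific factors of the GATA, T-box, NK and LIM-homeobox families.

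The sequences at the centres of peaks from 3 of the clusters with the most peaks show what lies under neighbouring CHD7 peaks. Each is 200 bp of the GRCm38 reference, read on the plus strand, and capitals mark a match to 1 of 8 consensus motifs on either strand. The letters searched were, for GATA factors, AGATAA; for caudal homeobox factors, CATAAA; for ISL1, CTAATG; for NKX2-5, TNAAGTG; for T-box factors, AGGTGT; and for KLF/SP factors, GGGCGGG. The MEF2 and CTCF consensus motifs were searched as well. A match is a description of letters and not a binding site. In the HoxA cluster, peak1251 (chr6:52199783-52199982) lay in a noncoding exon of Hoxa3 transcripts and peak1252 (chr6:52203002-52203201) in an intron of Hoxa3 and Hoxa5 transcripts.

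peak1251: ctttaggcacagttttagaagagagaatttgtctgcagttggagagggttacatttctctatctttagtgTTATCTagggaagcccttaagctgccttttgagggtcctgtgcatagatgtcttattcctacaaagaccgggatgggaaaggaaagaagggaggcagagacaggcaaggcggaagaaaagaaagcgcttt
peak1252: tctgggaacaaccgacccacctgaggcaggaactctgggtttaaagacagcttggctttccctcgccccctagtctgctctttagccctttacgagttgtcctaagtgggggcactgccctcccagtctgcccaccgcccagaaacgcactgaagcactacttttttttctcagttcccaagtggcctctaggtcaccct

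The first holds 1 GATA match, read here as its reverse complement, and the second holds no match. In the windows of this cluster that are not printed, peak1249 holds an NKX2-5 match and peak1250 no match. The 3 peaks inside Arid3b, which encodes a DNA-binding protein with an AT-rich interaction domain, all lay in introns, at chr9:57812148-57812347 (peak1903), chr9:57814741-57814940 (peak1904) and chr9:57818126-57818325 (peak1905).

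peak1903: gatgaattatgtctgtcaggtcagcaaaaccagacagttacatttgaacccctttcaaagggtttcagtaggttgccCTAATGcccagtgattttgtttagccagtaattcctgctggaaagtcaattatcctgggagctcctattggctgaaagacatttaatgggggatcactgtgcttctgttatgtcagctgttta
peak1904: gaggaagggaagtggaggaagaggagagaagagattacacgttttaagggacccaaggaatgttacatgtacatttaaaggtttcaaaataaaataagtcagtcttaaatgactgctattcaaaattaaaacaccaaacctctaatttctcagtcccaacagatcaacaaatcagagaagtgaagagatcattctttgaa
peak1905: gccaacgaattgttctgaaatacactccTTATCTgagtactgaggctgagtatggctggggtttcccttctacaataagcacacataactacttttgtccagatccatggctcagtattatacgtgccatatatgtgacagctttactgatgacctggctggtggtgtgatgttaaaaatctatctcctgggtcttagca

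Here the first has an ISL1 match, the middle one has none and the last has a GATA match. The cluster between Spi1 and Mybpc3 is shown for peak385 (chr2:91101613-91101812), in an intron of Spi1, and peak386 (chr2:91123783-91123982), whose midpoint lay in an intron of Mybpc3 and whose window runs into a coding exon.

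peak385: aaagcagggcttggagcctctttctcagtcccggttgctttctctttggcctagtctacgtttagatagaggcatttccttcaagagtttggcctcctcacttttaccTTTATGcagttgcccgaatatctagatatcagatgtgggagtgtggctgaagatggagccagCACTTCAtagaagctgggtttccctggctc
peak386: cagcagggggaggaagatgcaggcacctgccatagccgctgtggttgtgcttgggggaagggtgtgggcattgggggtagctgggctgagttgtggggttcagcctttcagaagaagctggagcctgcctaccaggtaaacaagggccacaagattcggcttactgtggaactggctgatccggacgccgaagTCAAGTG

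Both windows have an NKX2-5 match, and peak385 has a caudal match as well. The window of peak384 in the same cluster, not printed, has a GATA match and no NKX2-5 match. Across all clusters, 1 of 299 pairs of peaks from the same cluster shared a word of 31 bases on either strand (peak911 and peak912, near Xkr8 and Smpdl3b).

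Most clusters were pairs. There were 221 clusters of 2 peaks (89.8%), 24 of 3 peaks and 1 of 4 peaks. The distances that chose the members had a median of 12198 bp (quartiles 6452.5 and 18784.5, range 1119 to 24965) over 272 steps within clusters, against a median of 276112.5 bp over all steps of the list. From its first to its last base a cluster spanned a median of 13826 bp, with a range from 1652 to 49838 bp. Steps were spread evenly over this range: 54 were at most 5 kb, 54 lay between 5 and 10 kb, 59 between 10 and 15 kb, 48 between 15 and 20 kb, and 57 between 20 and 25 kb. Beyond the limit the numbers were similar, with 50 steps between 25 and 30 kb and 44 between 45 and 50 kb. The 25-kb limit thus divides a continuous range of distances, and no gap in the data marks it.

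**Figure D1:**
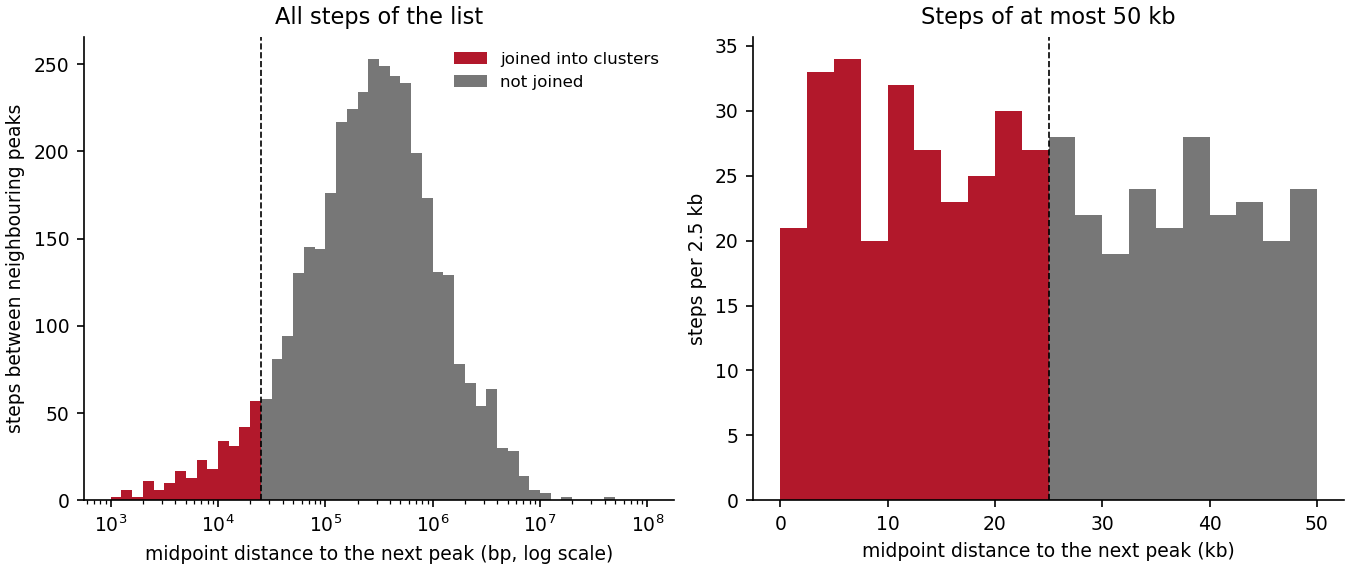
Midpoint distances between neighbouring CHD7 peaks, as numbers of steps, on a log scale for the whole list (left) and on a linear scale up to 50 kb (right). Red steps joined peaks into clusters, grey steps did not, and the dashed line is 25 kb; the counts change little across it.

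The 3 steps just inside the limit were 24829 bp at Gata6, 24882 bp at Rapgef5 and 24965 bp at Schip1. Steps a little outside it were 25207 bp at Bcat1 and 25429 bp at Gm973. No peaks of the list overlapped, and the smallest gap between neighbouring peaks was 546 bp, inside Tpm1. In 12 steps the gap was under 1 kb, so that a different way of joining peaks could have made 1 peak of them.

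The only cluster of 4 peaks lay in the HoxA complex, a row of homeobox genes that set position along the body axis. Its last 2 peaks, whose centres are printed above, were 2224 and 555 bp wide with midpoints 3219 bp apart, and lay between the start sites of Hoxa4 and Hoxa5.

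The cluster of 3 peaks that covered most bases lay inside Arid3b (chr9:57811606-57819122). Peaks of 1285, 2631 and 1793 bp made up 75.9% of its 7517 bp, with a smallest gap of 635 bp, so most of this intronic stretch was under a peak. A second compact cluster, of 6962 bp (chr11:6646768-6653729) and 44.9% covered, lay between Wap, a milk protein gene, and Ramp3, which encodes a partner of calcitonin-family receptors. No start site lay inside either of them.

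The other named clusters were wider and less filled, with 7.7 to 17.9% of their length under peaks. Of these, the cluster at Ifrd2 and Sema3b, a secreted semaphorin gene (chr9:107587268-107613552), had 1 peak at the Ifrd2 start and 2 peaks just upstream of Sema3b. Tenm4, a teneurin gene for cell adhesion, held 3 peaks over 36778 bp around a start site in its body (chr7:96642340-96679117). At Arhgef2, which encodes a microtubule-associated protein (chr3:88586500-88608275), the widest peak, of 2150 bp, sat at the start of the gene.

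Spi1, a blood transcription factor gene, and its neighbour Mybpc3, which encodes cardiac myosin-binding protein C, were spanned by a cluster of 3 peaks over 42690 bp (chr2:91081652-91124341). The cluster at Aars and Exosc6, genes for a tRNA synthetase and an RNA exosome subunit (chr8:111033456-111059775), had 2 of its 3 peaks within 1 kb of a transcription start site (TSS). Kcp, whose product binds BMP ligands, had 3 peaks over 39938 bp (chr6:29473753-29513690). The last of the 10 spanned 35817 bp between Ino80c, a subunit gene of another chromatin remodeller, and Galnt1, and had no start site in it.

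**Figure D2:**
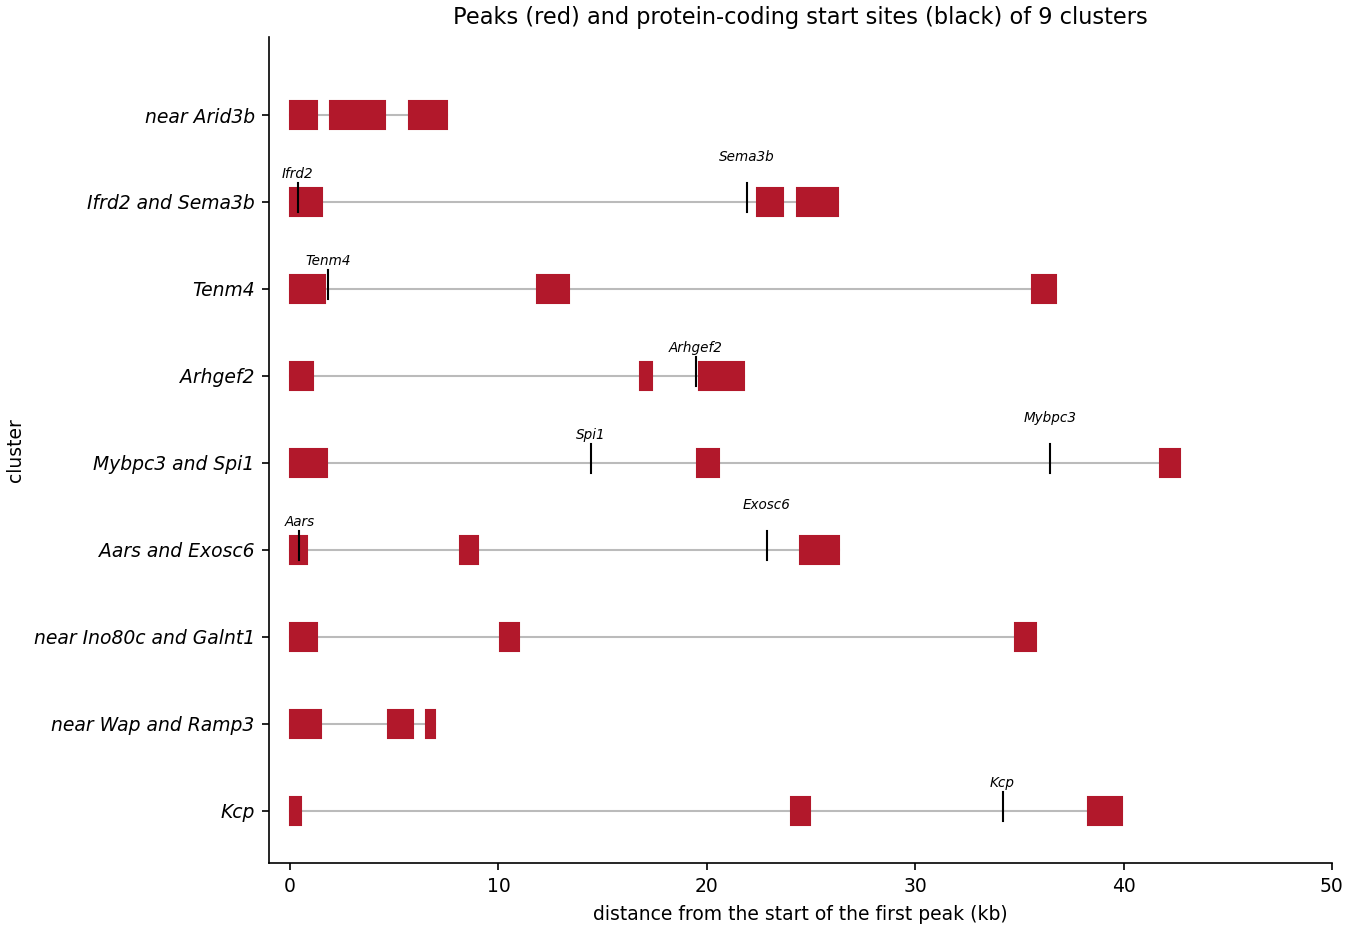
The 9 named clusters of 3 peaks, drawn to scale from the start of the first peak (kb). Red boxes are peaks, black ticks are the start sites of protein-coding genes, 1 per gene; the Arid3b and Wap to Ramp3 clusters are short and filled, the others are spread over 21776 to 42690 bp.

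Clusters were seldom made of promoter peaks alone. With TSSs taken from all transcripts of protein-coding genes, 171 of the 246 clusters (69.5%) had no peak within 1 kb of a TSS, 63 (25.6%) joined such a peak with a more distant one, and 12 (4.88%) had all their peaks within 1 kb. Both peaks lay within 1 kb in 14 of the 272 steps within clusters and in 117 of the 3468 other steps of the list, as a description. In 48 clusters every peak was over 50 kb from any TSS. In 191 clusters (77.6%) all peaks had the same nearest gene, and in 94 (38.2%) all midpoints lay inside the body of the same gene. A TSS fell between the first and last base of 110 clusters, and 26 of these held TSSs of 2 or more genes.

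In the 63 mixed clusters the peak at the TSS could be set beside its distant partner. Its GC content was higher in 49 of 63 clusters and its width greater in 38. The medians were 54.6% GC and 827 bp for 66 peaks at a TSS, and 48% GC and 706 bp for their 71 partners. Isolated peaks showed the same contrast, with medians of 55.1% GC and 826 bp for 495 peaks at a TSS and 46.6% and 686 bp for the other 2748. These medians have no test.

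Neighbours in a cluster resembled each other only weakly. Across the 272 steps the correlation between the widths of both peaks was r = 0.165, and between their GC contents r = 0.247. Over the 3468 longer steps of the list these were 0.0154 and 0.187. Peaks of the same locus share base composition and annotation, and these values are descriptions. The widest peak of a cluster was a median of 1.54 times as wide as the narrowest, and at most 4.95 times.

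Whether clustered peaks differ from isolated ones was asked for 8 properties that the choice of members did not use. Each was fitted by logistic regression with standard errors that allow for peaks of a cluster sharing a locus, and p-values were adjusted over the 8 by the Benjamini-Hochberg method. Clustered peaks lay in more gene-rich surroundings. For 303 of 518 (58.5%, 95% CI 54.2 to 62.7) the number of protein-coding genes with a TSS within 100 kb was above the list's median of 2, against 1502 of 3243 isolated peaks (46.3%, 95% CI 44.6 to 48). The odds ratio was 1.63 (95% CI 1.26 to 2.12, 2-sided adjusted p = 0.00187, n = 518 and n = 3243). Peaks over 25 kb apart entered as separate loci, although their 100-kb surroundings can hold the same genes. The interval and p-value do not allow for this and may be too narrow and too low. The median number of genes was 3 around clustered and 2 around isolated peaks. With log10 distance to the TSS in the model the odds ratio was 1.52 (adjusted p = 0.013, n = 518 and n = 3243). Peaks joined at 10 kb gave an odds ratio of 1.55 that did not pass (adjusted p = 0.241, n = 213 and n = 3548), and neither did clusters of at least 3 peaks, with 2.36 (adjusted p = 0.315, n = 76 and n = 3243).

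The share with gene-rich surroundings was higher among clustered peaks in each class of distance to a TSS, but no class was tested. Among peaks within 1 kb of a TSS, 87.8% of 90 clustered and 73.7% of 495 isolated peaks had gene-rich surroundings. From 1 to 10 kb the shares were 80.5% of 174 and 73.1% of 870, and from 10 to 50 kb they were 52.7% of 146 and 44.1% of 1061. Beyond 50 kb few peaks of either kind were in such places, 6.48% of 108 and 4.04% of 817. Set against the distance to the nearest other peak, the share was lowest, 33.7%, for the 1137 peaks whose nearest neighbour lay over 250 kb away. It was 50.3% of 1040 peaks from 100 to 250 kb, 56.1% of 665 from 50 to 100 kb and 55.8% of 400 from 25 to 50 kb. Isolated peaks of these last 2 classes were thus close to the 58.5% of all clustered peaks. Among clustered peaks it was 58.7% of 305 from 10 to 25 kb and 66.7% of 108 from 5 to 10 kb. The 105 closest peaks, under 5 kb, went against this order with 49.5% (Wilson 95% CI 40.1 to 58.9), near the share of isolated peaks. This distance is the value that chose the members, so these shares are a description.

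The other 7 properties did not pass the test. Within 1 kb of a TSS lay 90 of 518 clustered peaks and 495 of 3243 isolated ones (odds ratio 1.17, 95% CI 0.897 to 1.52), and over 50 kb away in 20.8% against 25.2% (0.782, 0.571 to 1.07). The midpoint was inside a protein-coding gene for 56.9% against 52.6% (odds ratio 1.19, 95% CI 0.946 to 1.5). By the annotation at the midpoint, 45.9% of clustered peaks were intronic, 5.02% in a UTR, 4.05% in coding sequence, 1.93% in a noncoding exon and 43.1% outside protein-coding genes. For isolated peaks these shares were, in turn, 44, 4.69, 2.99, 0.956 and 47.4%, without a test.

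Clustered peaks were wider than the list's median of 703 bp in 51.5% of cases against 49.6% (odds ratio 1.08, 95% CI 0.89 to 1.31). Their median width was 725 bp and that of isolated peaks 701 bp. GC content was above the median in 53.9% against 49.4% (odds ratio 1.2, 95% CI 0.973 to 1.47), with medians of 48.1 and 47.4%. This property passed in 2 alternatives. One had peaks joined at 50 kb (odds ratio 1.24, adjusted p = 0.0262, n = 918 and n = 2843). The other had 1 peak per cluster and also Fisher's exact test (1.4, adjusted p = 0.0478, n = 246 and n = 3243). The odds ratio was 1.08 with log10 TSS distance as a covariate and 1.07 with peaks joined at 10 kb, neither passing. CpG island-like sequence, with at least 50% GC and at least 0.6 of the expected CpG, was found in 7.14% against 6.51% (odds ratio 1.11, 95% CI 0.78 to 1.57). A repeat share above the median was found in 46.9% against 50.5% (odds ratio 0.867, 95% CI 0.72 to 1.04). The lowest adjusted p among these 7 properties was 0.218 (n = 518 and n = 3243). The intervals include no difference but reach from 0.571 to 1.57 in odds ratio, so these data do not show that both kinds of peak are alike.

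**Figure D3:**
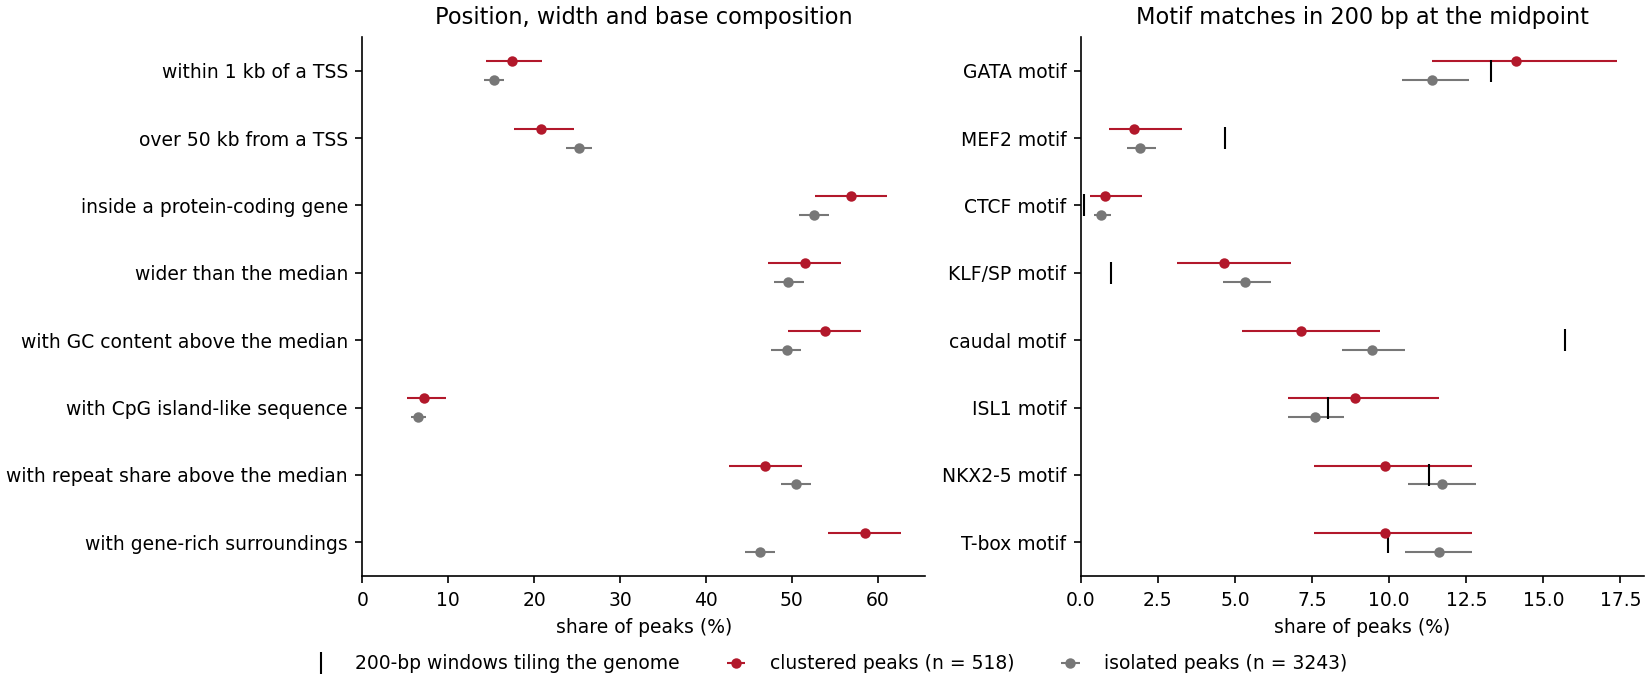
Shares of clustered (red) and isolated (grey) peaks with each of 8 properties (left) and with a match to each of 8 motifs in 200 bp at the midpoint (right), in percent with Wilson 95% intervals that treat peaks as independent. Black ticks are shares of 264761 windows of 200 bp tiling the genome; gene-rich surroundings show the clearest separation, 58.5 against 46.3%.

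No motif differed past the threshold between the centres of clustered and isolated peaks. At least 1 of the 8 motifs matched in 245 of 518 clustered windows (47.3%) and in 1527 of 3243 isolated ones (47.1%), which was not tested. Of 327 matches in clustered windows, 2 overlapped a match to another motif, an ISL1 and a T-box match at the same place. GATA factors, zinc finger proteins that act early in the heart, had a match in 73 clustered windows (14.1%) against 11.4% of isolated ones, 11.8% of all peaks and 13.3% of the windows tiling the genome. The odds ratio was 1.27 (95% CI 0.955 to 1.69, adjusted p = 0.399 over the 8 motifs, n = 518 and n = 3243).

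The caudal motif, of homeobox factors of posterior identity, was at 7.14% against 9.44% (odds ratio 0.738, 95% CI 0.52 to 1.05), with 9.12% of all peaks and 15.7% of genome windows. The ISL1 motif, of the LIM-homeobox factor that marks second heart field progenitors, was at 8.88% against 7.59% (odds ratio 1.19, 95% CI 0.85 to 1.66; all peaks 7.76%, genome windows 8.03%). Matches for the cardiac homeobox factor NKX2-5 were in 9.85% against 11.7% (odds ratio 0.825, 95% CI 0.615 to 1.11; 11.4% and 11.3%). The T-box motif, which TBX5 and related factors read, was also at 9.85%, against 11.6% (odds ratio 0.835, 95% CI 0.605 to 1.15; 11.3% and 9.97%). None of these passed the test.

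The GC-rich KLF/SP motif was in 4.63% of clustered and 5.33% of isolated windows (odds ratio 0.862, 95% CI 0.553 to 1.34), with 5.24% of all peaks and 0.971% of genome windows. Over whole peaks the direction turned, with 18.7% against 14.5%. With log10 width as a covariate the odds ratio there was 1.34 (95% CI 1.03 to 1.74, adjusted p = 0.223, n = 518 and n = 3243). The motif of CTCF, which anchors chromatin loops, was found in 4 clustered windows (0.772%) and 21 isolated ones (0.648%; odds ratio 1.19, 95% CI 0.41 to 3.48), with 0.665% of all peaks and 0.099% of genome windows. The odds ratio of this motif rested on few matches. It moved from 0.693 with peaks joined at 10 kb to 2.88 at 50 kb (95% CI 1.32 to 6.31, adjusted p = 0.0648, n = 918 and n = 2843). The cause of the move was not tested. The AT-rich MEF2 motif was in 9 clustered windows (1.74%) and 1.91% of isolated ones (odds ratio 0.907, 95% CI 0.451 to 1.83), with 1.89% of all peaks and 4.68% of genome windows. As with the properties, these intervals do not show that the motifs are equally frequent in both kinds of peak. Genome windows were not matched for base composition, which differs from that of peaks.

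The share with a GATA match was highest among the closest peaks. Of 105 peaks with another peak within 5 kb, 26 had a GATA match at the centre (24.8%, Wilson 95% CI 17.5 to 33.8). In the classes from 5 to 10 kb and from 10 to 25 kb the shares were 12% of 108 and 11.1% of 305 peaks, and among isolated peaks 11.4%. The 26 peaks came from 20 of 51 clusters with such a step, and of their 31 matches 2 lay in annotated repeats. The 5-kb class was looked at after the values were known and has no test of its own. Joining peaks at 10 kb, a setting that holds the same 26 peaks, gave an odds ratio of 1.74, with 18.3% of 213 clustered and 11.4% of 3548 other peaks (adjusted p = 0.0442, n = 213 and n = 3548). No other setting passed for this motif. The odds ratio was 1.41 with 1 peak per cluster and Fisher's exact test, 1.37 with GC content of the window and 1.34 with TSS distance as a covariate. It was 1.08 with peaks joined at 50 kb and 1.14 in windows of 400 bp. Over whole peaks, where 38% of clustered and 36.6% of isolated peaks had a match, it was 1.04 with log10 width as a covariate.

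**Figure D4:**
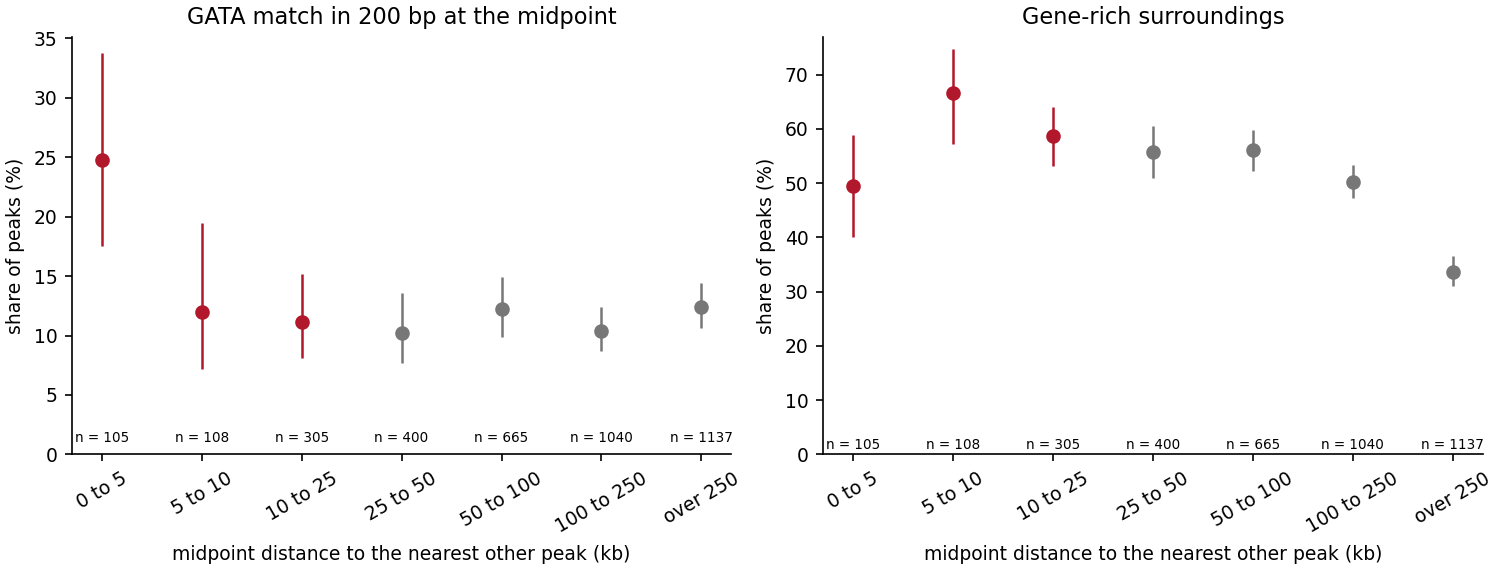
Share of peaks (%) with a GATA match at the centre (left) and with gene-rich surroundings (right), by midpoint distance to the nearest other peak (kb). Points are shares with Wilson 95% intervals, red for clustered and grey for isolated peaks; the GATA share is 24.8% under 5 kb and 10.2 to 12.4% in all other classes.

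In 10 clusters at least 2 peaks had a GATA match, and 63 clusters had a match in any peak. Several of the 10 are named here after their values were seen. The pair of peaks in Tpm1, the gene of a thin-filament tropomyosin, had 1 and 3 matches, with peak midpoints 2271 bp apart. A pair over 200 kb from Sox11, a transcription factor gene of progenitor cells, had 2 and 1 matches, with peak midpoints 3210 bp apart. The first cluster upstream of Bmp4 had a match in the outer 2 of its 3 peaks.

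Genes were linked to peaks through regulatory domains, which reach from 5 kb upstream to 1 kb downstream of a TSS and are extended to the next gene's domain, by at most 1 Mb. Of 21911 protein-coding genes, 22.7% had any peak in their domain and 517 genes (2.36%) had a clustered peak. The 517 genes made up 10.4% of the 4978 genes with a peak, and 385 of them had 2 or more clustered peaks. Their median domain was long, 159749 bp, where that of all genes was 90167 bp. It was longer still, 209527 bp, for the 4461 genes with isolated peaks alone. Long domains collect more peaks, so shares of gene lists are given as descriptions beside the 2.36%, with the median domain of the list. Domains of neighbouring genes overlap, so a peak can be counted for a gene other than its nearest. Distances upstream or downstream of a named gene are from the 1 TSS that set its domain, and another start of that gene can be nearer.

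Among 38 genes of the BMP and TGF-beta pathway, 4 had clustered peaks (10.5%, median domain 341917 bp). Bmp4, a ligand that patterns the mesoderm and the arterial pole of the heart, had most: 6 of the 7 peaks in its domain were clustered. They formed a tight group at 182843, 187794 and 192603 bp upstream of its TSS and a looser one at 248950, 271394 and 290459 bp. All 3 peaks of the nearer group lay within the noncoding RNA gene Rubie, and both groups also fell in the domain of Cdkn3 on the other side, whose TSS was the nearest for 5 of the 6. A pair of peaks 12078 bp apart lay in the domain of Bmp5, another ligand of the early heart, 192689 and 204767 bp downstream of its TSS, but much nearer Hmgcll1, at 46802 and 34724 bp, in whose domain it also was. Smad1, which carries the BMP signal to the nucleus, had a pair in its introns 23794 and 40292 bp from that TSS. The second of these peaks was 2548 bp from another Smad1 start. The pair at Inhbb, an activin subunit gene, was 6126 and 13226 bp downstream of its TSS and also in the domain of Gli2.

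Homeobox genes had clustered peaks in 9 of 65 cases (13.8%), although the median domain of this list was only 36426 bp. Lhx1, a LIM-homeobox gene of early mesoderm, had 4 peaks, all clustered. A pair flanked its TSS, at 4043 bp downstream and 20193 bp upstream, and a second pair lay 61815 and 86354 bp upstream. Hoxa4 and Hoxa5 shared the last 2 peaks of the HoxA cluster, and Hoxc9 had a pair 4751 bp apart across its TSS, at 1243 bp upstream and 3508 bp downstream. The same pair gave Hoxc8 1 clustered peak. Among the others, named after their values were seen, were Meis1, with a pair 1806 and 4170 bp upstream of its TSS, and Msx1, with a pair 66060 and 68933 bp upstream. MEIS proteins bind DNA together with HOX proteins, and Msx1 is a target of BMP signalling.

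Of 41 cardiac transcription factor genes, 2 had clustered peaks (4.88%, median domain 408202 bp) and 17 had isolated peaks alone. Gata6, a GATA factor of the outflow tract and of endoderm, had 3 peaks, all clustered, at 15012 and 12239 bp upstream and 12590 bp downstream of its TSS. The last of these is joined to the others by the step of 24829 bp, close to the limit. Hand2, a basic helix-loop-helix factor of the right ventricle and outflow tract, had both its peaks in a pair 396717 and 387794 bp upstream, of 1902 and 1355 bp. This pair also fell in the domain of Fbxo8, whose TSS was nearer.

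Other genes of the heart fields had peaks that stood alone, as did 4461 of the 4978 genes with a peak in their domain. Tbx5, of the posterior field, had 2 isolated peaks 141464 bp apart, and Osr1 had 3, the closest 140638 bp apart. Fgf10, a ligand of the anterior field, had 3 isolated peaks at least 164299 bp apart. Isl1, Hand1, Foxf1 and Wnt4 had 1 isolated peak each in their domains, whose nearest neighbours lay 582415, 294657, 135318 and 455249 bp away. Mef2c had 0 peaks. Of 14 anterior second heart field genes 0 had a clustered peak and 7 had isolated peaks alone (median domain 574837 bp). The share with a clustered peak over all genes was 2.36%, so 0 of 14 does not set this list apart.

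**Figure D5:**
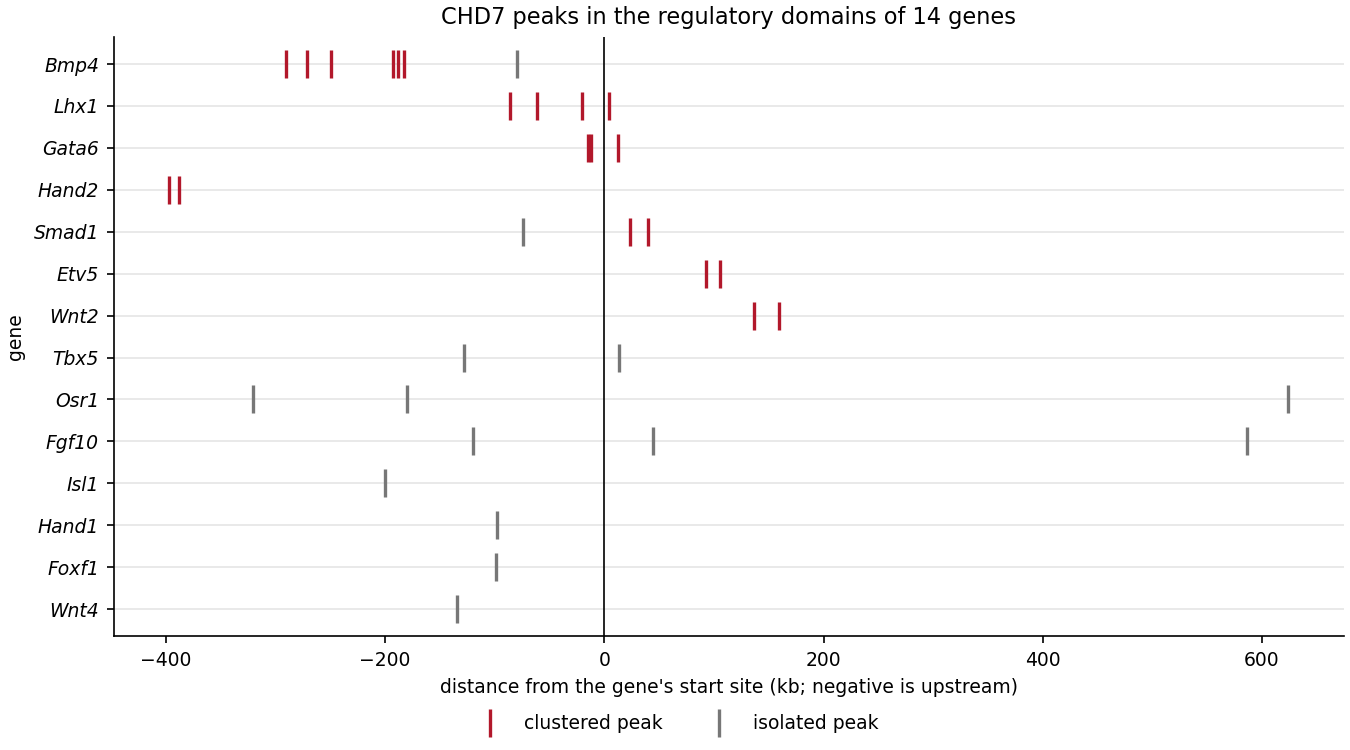
Midpoints of CHD7 peaks in the regulatory domains of 14 genes, as distance from the TSS (kb, negative upstream). Red marks are clustered and grey marks isolated peaks; 6 of 7 Bmp4 peaks and all 4 Lhx1 peaks are clustered, while those of Tbx5, Osr1, Fgf10 and Isl1 stand alone.

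Genes of other signals were counted next. In the WNT list those with clustered peaks were 3 of 53 (5.66%, median domain 253357 bp): the ligand Wnt2, with a pair 136373 and 159777 bp downstream inside the neighbouring gene St7, the destruction complex gene Apc and the corepressor gene Tle3. The pairs of Apc and Tle3 also fell in the domains of Epb41l4a and Uaca, whose TSSs were nearer. In the FGF list it was 1 of 27 (3.7%, median domain 365031 bp), Etv5, an ETS factor induced by FGF signalling, with a pair 92757 and 105326 bp downstream. The Etv5 pair also fell in the domain of Tra2b, which was nearer when 1 TSS per gene was taken. In the Notch, Hedgehog and retinoic acid list it was 4 of 44 (9.09%, median domain 144247 bp): the retinoic acid-degrading enzyme gene Cyp26b1, the Hedgehog effector Gli2, the Notch target Hes1 and the retinoid receptor Rxra. The Rxra pair lay in its introns, 22428 and 26152 bp from the TSS of its domain, and also in the domain of Col5a1. The second of these peaks was 5939 bp from another Rxra start.

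Among genes of the contractile apparatus, 4 of 42 had clustered peaks (9.52%, median domain 82633.5 bp). Tpm1 had the closest pair by gap, with a peak of 2575 bp whose nearest TSS was 493 bp away and a second one 2271 bp further on. Myh10, a nonmuscle myosin, had 3 clustered peaks, at 68495, 78189 and 88946 bp upstream, and 2 isolated ones. The clustered ones were nearer Ccdc42 and in its domain too. Mybpc3 had 2 clustered peaks, 1 of them also in the domain of Spi1, and the calponin gene Cnn2 had 1 peak of a pair, which was nearer Tmem259. Of 28 ion channel and calcium-handling genes it was 3 (10.7%, median domain 280485.5 bp). These were the gap junction gene Gja1, whose pair lay 600591 and 605639 bp downstream and nearer Hsf2, Ryr2, the calcium release channel, with a pair in its introns 6621 bp apart, and Jph2. At Jph2, which ties the sarcoplasmic reticulum to the cell membrane, lay the widest of all clustered peaks, of 3123 bp, 217 bp from a TSS. Its partner, 22040 bp away, was in an intron of Oser1.

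Of the axon guidance genes listed, 4 of 35 had clustered peaks (11.4%), with the longest domains of any list (median 763909 bp). They were Plxnd1, the endothelial semaphorin receptor, Robo2, Sema4d and Sema5a. The list does not hold Sema3b, which had 2 clustered peaks. The Plxnd1 peaks lay in the neighbouring gene Tmcc1 and those of Sema4d in Secisbp2, while those of Sema5a were in its own introns. Of 31 matrix and adhesion genes 2 had clustered peaks (6.45%, median domain 365397 bp), Col18a1 and Col5a1. Of 45 chromatin regulators listed it was 1 (2.22%, median domain 179011 bp), Smarca4, the ATPase gene of the BAF complex. Chromatin genes outside the list had clustered peaks too, among them Ino80c with 3, and the methyltransferase gene Ehmt1 with 2 and the acetyltransferase gene Kat6b with 1, both named after their values were seen. The Kat6b peak lay in the body of Adk, which was its nearest gene. The lists are partial, and their shares hold for the listed genes alone.

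Genes of other cell types that such a culture could hold were counted as well. Of 18 neural and of 18 pluripotency genes, 0 had a clustered peak, while 7 and 8 of them had isolated peaks alone (median domains 435757 and 276676 bp). With 2.36% over all genes, these counts of 0 do not set the lists apart. Of 12 endoderm genes 1 had one (8.33%, median domain 200862.5 bp), which was Gata6 again, and of 21 endothelial and blood genes listed 1 (4.76%, median domain 128310 bp), Emcn, an endothelial sialomucin gene, whose pair was nearer Ddit4l. Spi1, a blood gene with 2 clustered peaks, is not in that list.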

How the data were processed

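Libraries were made from CP cells with anti-CHD7, IgG or input, in 3 biological replicates each. Per the labels and the study's methods, the authors trimmed reads with fastp (0.20.1 in the submitters' processing notes), aligned them to mm10 with BWA (0.7.17.4), removed duplicates by unique molecular identifiers and called peaks for each sample with MACS2 (2.1.2) against IgG. Peaks overlapping in more than 1 replicate were kept. The deposited values are peak starts and ends in bp, for all anti-CHD7 replicates together. The calling threshold is not given in the sources used here. The reads, IgG and input were not analysed here.

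Starts were read as counted from 0, and peaks were numbered in list order. GRCm38.p6 sequence and GENCODE M21 annotation were used, with repeats as soft-masked. For TSS distances, every transcript start of protein-coding genes counted, and the closest to the midpoint was taken. Properties and motifs were compared by logistic regression with cluster-robust standard errors and Wald tests, with Benjamini-Hochberg adjustment over 8 properties and, separately, 8 motifs, and a threshold of 0.05. Shares have Wilson 95% intervals, which cover counting error only and treat peaks as independent. Functions were tested on simulated data.

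The members and lists were chosen with earlier results of these data known. Named were the 10 clusters with most peaks (ties by bases covered), genes with a TSS inside them, up to 4 genes per list with most clustered peaks, and 9 heart field genes. Alternatives were other join distances, merged peaks, 1 peak per cluster, Fisher's exact tests, other TSSs, windows, covariates and gene rules. Every alternative with 1 peak per cluster used Fisher's exact test, and every one over whole peaks had log10 width as a covariate. Fits used statsmodels 0.14.6 with scipy 1.17.1, tables pandas 2.3.3 and numpy 2.4.6, sequences samtools 1.23.1 with pysam 0.24.0, and figures matplotlib 3.10.9, in Python 3.11.15.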

Additional observations from a re-analysis of the deposited data

How the results depend on the processing

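No paired analysis was possible because the replicates were joined into 1 list with no value per sample, and for the same reason no replicate could be left out. Depth is unknown, and the number of clustered peaks limits the precision. Of 138 tests under alternatives, 13 changed direction, and none of these passed; the 1 property that passed has 7 alternatives. The number of clustered peaks was 213 at 10 kb and 918 at 50 kb, in 105 and 415 clusters, with 203 and 951 genes, and 298 genes by the single nearest TSS; these follow from the rules themselves. Gene-rich surroundings kept their direction in 7 of 7 alternatives (odds ratios 1.52 to 2.36, adjusted p from 2.33e-06 to 0.315). The lowest p came from Fisher's exact test over peaks, which treats peaks of a cluster as independent, where the main Wald test gave 0.00187. This property did not pass at 10 kb (1.55) or for clusters of at least 3 peaks (2.36), where fewer peaks were clustered. Others passed in 1 setting, the GATA motif at 10 kb (odds ratio 1.74) and a distance over 50 kb at 50 kb (0.711). High GC passed in 2, at 50 kb (1.24) and with 1 peak per cluster and Fisher's exact test (1.4). Odds ratios near 1 changed side without passing. CpG island-like sequence was at 0.838 at 10 kb and 0.974 with TSS distance as a covariate, the CTCF motif at 0.693 at 10 kb and 0.626 with 1 peak per cluster (but 2.88 at 50 kb and 2.05 for clusters of at least 3 peaks, from 1.19, neither passing), width at 0.935 with 1 peak per cluster, and the ISL1 motif at 0.897 at 50 kb. For clusters of at least 3 peaks, repeats were at 1.03 and the NKX2-5 motif at 1.42. Peaks within 1 kb of a TSS were at 0.996 with 1 TSS per gene, the KLF/SP motif at 1.34 over whole peaks, and the MEF2 motif at 1.12 over whole peaks, 1.14 in 400 bp and 1.01 with window GC as a covariate (but 0.478 at 10 kb, 0.625 at 50 kb, 0.633 with 1 peak per cluster and 0.684 for clusters of at least 3, from 0.907, none passing). The cause was not tested.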

Other observations

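The share of clustered peaks differed between chromosomes, as a description. It was 20.1% of 249 peaks on chromosome 9, 19.7% of 122 on chromosome 16 and 18.9% of 291 on chromosome 11, but 8.98% of 167 on chromosome 3 and 6.82% of 176 on chromosome 13. Peaks per Mb, which follow from the same spacing that chose the members, were 2, 1.24, 2.38, 1.04 and 1.46 on these chromosomes in turn. The order of density was not that of the shares, as chromosome 19 had 2.02 per Mb with 13.7% of 124 clustered. The X chromosome had 14 peaks, or 0.0819 per Mb, of which 0 were clustered.

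A few loci, named after their values were seen, had clustered peaks in 2 separate clusters. Domains of 11 genes did so, among them Bmp4, Lhx1 and Sox11. All 4 peaks in the domain of Sox11 were clustered, and the pair farthest from it lay in the noncoding gene Gm9866. The closest midpoints of the list, 1119 bp apart, were at the start of Cdon, which encodes a Hedgehog co-receptor. The pair farthest from any TSS, at 501658 and 506706 bp, was the one in the domain of Gja1, with its nearest TSS at Hsf2. Among the 376 widest peaks, over 1478 bp, 61 were clustered (16.2%).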
